A study of Ovis aries and Mus musculus with 20 samples.

Results

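The genes described here are the ligands, receptors and secreted inhibitors of the Wnt pathway in the mouse, and the measurement is the position of their start sites in the A and B compartments and in the topologically associating domains (TADs) of inguinal white adipose tissue (iWAT). Members were all autosomal protein-coding genes of GRCm39 named Wnt or Fzd with a number, Sfrp or Dkk with a number, Lrp5, Lrp6 or Wif1. This gave 40 of 20621 genes, of which 19 were ligands, 12 were receptors and 9 were secreted inhibitors. The mouse arm of the study held 1 group of 2 in situ Hi-C libraries, among 20 samples in the series. Each library was made from a pool of adult female Kunming mice, 32 weeks old, with no treatment named in the labels. Kunming is an outbred stock, so each pool averages over several genotypes. After cross-linking and centrifugation the upper layer, which contains the adipocytes, was lysed and its nuclei were digested with MboI. No mouse RNA library was among the samples analysed here, so nothing below measures transcription.

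Wnt proteins are secreted, lipid-modified ligands that act over short distances. They bind Frizzled receptors, which have many membrane-spanning segments, together with the co-receptors Lrp5 and Lrp6. In the canonical branch this stabilises β-catenin, which joins TCF/LEF factors in the nucleus. Other branches act on cell polarity and calcium without β-catenin. Sfrp proteins and Wif1 bind Wnts outside the cell, and Dkk proteins of the Dkk1 kind bind the co-receptors. In adipose tissue, canonical Wnt signals, Wnt10b among them, are known to hold back the differentiation of adipocyte precursors.

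The A-B index compares how strongly a 20-kb bin contacts the A and the B regions of its own chromosome, as the median observed over expected contact with A minus that with B. A positive index places the bin in the A compartment, which is gene-rich and mostly open, and a negative index in the B compartment, which is mostly closed. The index was read at the bin of the gene start in each pool. Levels on different chromosomes share no common reference, so ranks and percentiles below are those of the deposited index. Depth per bin is unknown, so the error of a gene is the difference between the pools. Over all genes the SD between the pools was 0.457 index units. Members are no replicates of a condition, and 1 group allows no test between conditions, so the values are given as a description beside those of all genes. Hi-C of bulk tissue averages over nuclei, so a change in the cell types present and a change within a cell type cannot be told apart.

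Of the 40 members, 34 (85%) lay in the A compartment in both pools, against 75.6% of all genes. In the B compartment in both pools were 5 members, against 21.7% of all genes, and 1 member changed sign between the pools, against 2.73% of all genes. The median index was 3.48 for the members and 3.26 for all genes. The quartiles were 1.12 and 4.46 for the members, against 0.275 and 4.66 for all genes. Above 0.5 in both pools were 33 members, against 72.3% of all genes. With the median of the genes of its chromosome subtracted from each value, which moves the median of all genes to 0.0138, 16 members (40%) stayed above 0 in both pools, against 46.7% of all genes, and the members' median was 0.00988. The share of the members was thus above that of all genes for the index as deposited and below it with the chromosome's median subtracted. Neither is read as a trait of the members.

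The classes differed in level. In the A compartment in both pools were 75.6% of all genes, with a median of 3.26. Ligands were so in 17 of 19 cases (89.5%) and had a median of 3.83. Receptors were so in 11 of 12 cases (91.7%) and had a median of 3.65. Secreted inhibitors were so in 6 of 9 cases (66.7%) and had a median of 1.14. With so few genes in a class, these shares are not read as traits of the classes. The median of all genes was exceeded by 12 ligands, 8 receptors and 2 inhibitors. Inhibitors had the lowest class median in each pool, with 2.05 in pool 1 and 1.12 in pool 2, and also after either scaling by chromosome. With the chromosome's gene median subtracted, the medians were 0.198 for ligands, 0.365 for receptors and -1.38 for inhibitors. The class difference was not tested, since neighbouring members share bins and TADs.

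**Figure D1:**
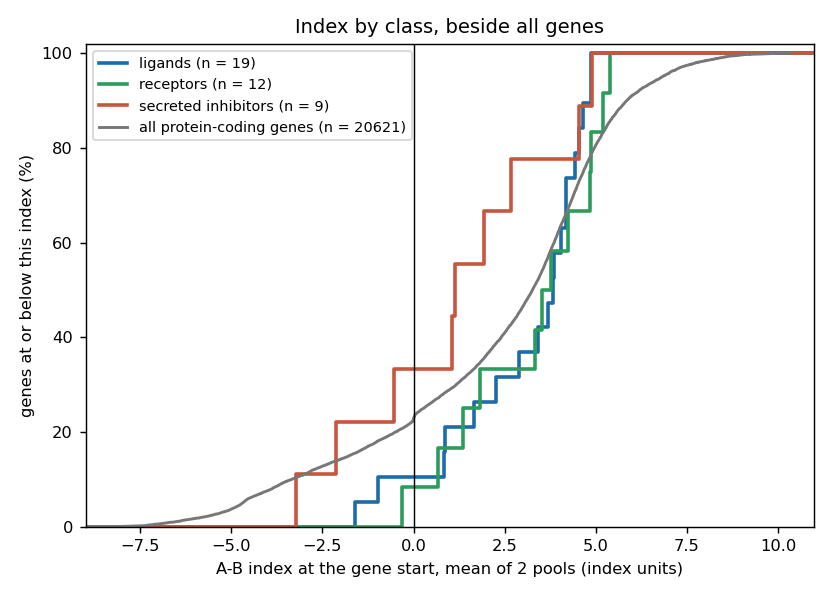
Share of genes at or below each A-B index (mean of both pools, in index units) for 19 ligands, 12 receptors, 9 secreted inhibitors and all 20621 protein-coding genes. The curve of the inhibitors lies left of that of the ligands over most of the range, with medians of 1.14 and 3.83, and no member exceeds 5.39, while all genes reach 10.4.

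Among the ligands with a high index were Wnt10b and Wnt1, at 5.09 in pool 1 and 4.63 in pool 2. Wnt10b is the ligand best known for holding back adipocyte differentiation, and Wnt1 is a founding canonical ligand that patterns the midbrain. They lie on opposite strands of chromosome 15, with annotated bodies that overlap and starts 2.31 kb apart, so both values come from the same bin. For Wnt10b (ENSMUSG00000022996.17, chr15:98668593-98690045) the start used is the most upstream one annotated. At the start of its canonical transcript the index was 4.83 and 4.25, which is also in the A compartment.

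Wnt11, a ligand of the β-catenin-independent branch, had 4.18 in pool 1 and 5.12 in pool 2. It was thus below Wnt10b and Wnt1 in pool 1 and above them in pool 2, so these ligands cannot be ordered. Its own bin averaged 4.65, below the mean of its TAD, 5.28. Wnt10a, which acts in teeth, hair and sweat glands, had 4.66 and 4.43, and Wnt6, a ligand of kidney development, had 4.61 and 4.25. Both ligands are known to inhibit adipogenesis in mouse precursor cells. They lie 19.8 kb apart on chromosome 1 in neighbouring bins of the same TAD, and their means differed by 0.109, within the spread between the pools.

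Wnt3a, the ligand most used to activate β-catenin in culture, and Wnt9a, which acts in joints, also share a bin, on chromosome 11. They had 4.80 in pool 1 and 3.59 in pool 2. Pool 1 minus pool 2 was 1.20, above the same signed difference at 91.3% of all genes. Wnt7b, a ligand of lung and kidney development, had 4.18 and 3.91. Wnt4, needed for the female reproductive tract and the mammary gland, had 4.08 and 3.61, and lay in the longest stretch of A bins of any member, 13860 kb. Wnt5b, a β-catenin-independent ligand that promotes adipogenesis in mouse cell lines, had 4.48 and 3.17. Its pools differed by 1.31, and it stayed above the median of all genes in each pool, which was 3.47 in pool 1 and 3.06 in pool 2.

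Wnt2b, a canonical ligand of lung specification, had 3.80 and 3.58. Wnt8a, a ligand of the early embryo, had 3.71 and 3.12, and Wnt7a, which patterns the limb and the uterus, had 2.72 and 3.07. These ligands sat close to the middle of all genes, between the 45.3rd and the 56.9th percentile. Wnt16, a ligand of cortical bone, had 3.01 in pool 1 and 1.50 in pool 2, the largest gap between pools among the ligands. It lay in a short A stretch of 740 kb, and 36.6% of the bins within 1 Mb of its start were above 0. Wnt8b, a ligand of the forebrain, had 1.42 and 1.91.

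The lowest ligands in the A compartment were Wnt9b and Wnt3. Wnt9b starts kidney tubule formation, and Wnt3 is needed for gastrulation and supports intestinal stem cells. Wnt9b had 1.13 and 0.590, and Wnt3 had 1.09 and 0.570. Their starts lie 24.3 kb apart on chromosome 11 and their means differed by 0.0286, so they cannot be ordered.

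Only Wnt5a and Wnt2 were in the B compartment among the ligands. Wnt5a (ENSMUSG00000021994.17, chr14:28226495-28249405), the main β-catenin-independent ligand, had -1.18 in pool 1 and -0.750 in pool 2. It is the only coding gene that starts in its 780-kb TAD, and no other coding gene starts within 500 kb. Of the bins within 1 Mb of its start, 10 (9.90%) were above 0, the fewest of any member. Wnt2 (ENSMUSG00000010797.8, chr6:17985468-18031892), a ligand of placenta and lung, had -1.62 and -1.60. The pools differed less at Wnt2 than at any other member. The sign changed 100 kb from the start of Wnt2, and the profile downstream of its start rose to 3.98 at 380 kb, in the next TAD.

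**Figure D2:**
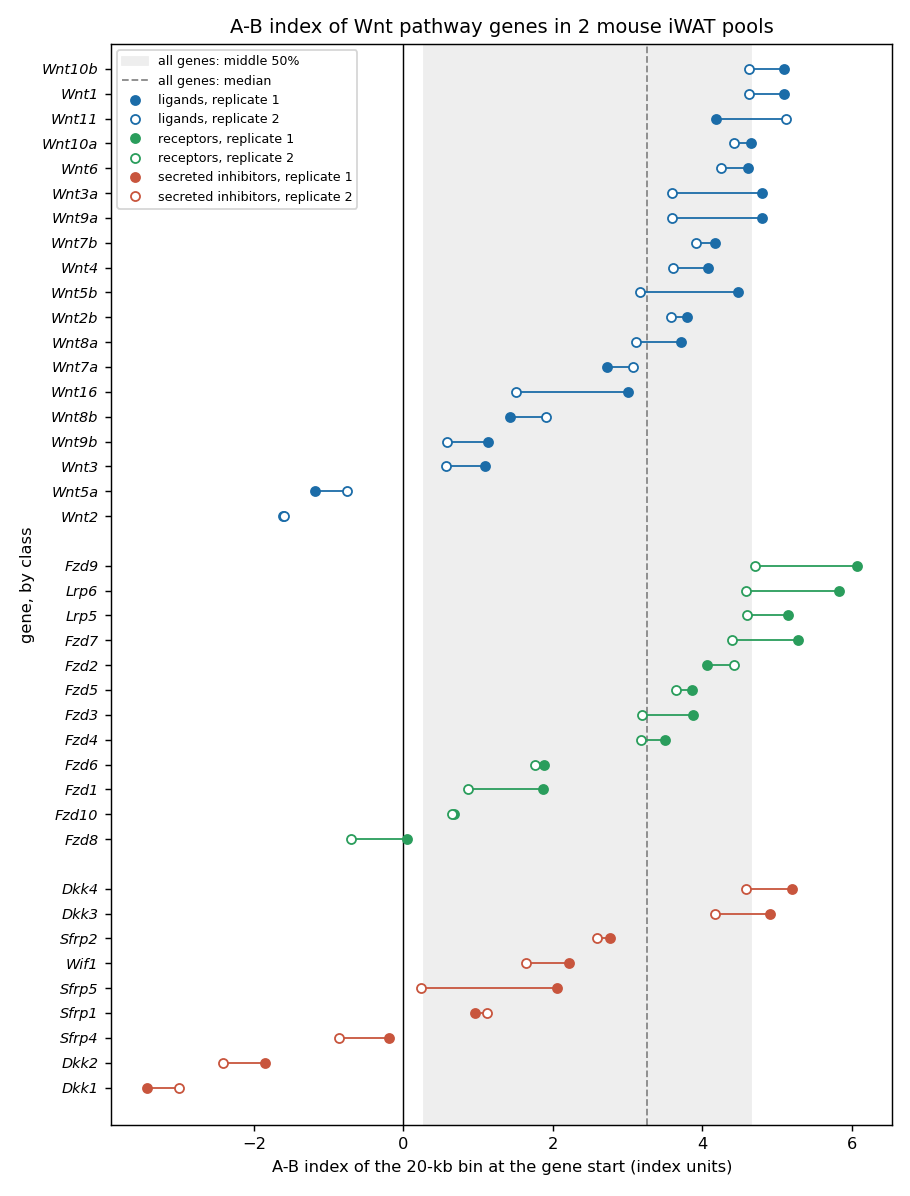
A-B index (index units) at the start of each of the 40 members in pool 1 (filled) and pool 2 (open), by class, with the middle 50% of all genes shaded and their median of 3.26 dashed. Wnt5a, Wnt2, Sfrp4, Dkk2 and Dkk1 lie below 0 in both pools, and only Fzd8 lies on both sides of 0.

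Among the receptors, Fzd9 had the highest mean of all members, with 6.07 in pool 1 and 4.71 in pool 2. Fzd9 acts in bone and in the hippocampus. The co-receptors followed, with 5.83 and 4.58 for Lrp6 and 5.15 and 4.61 for Lrp5. Lrp6 (ENSMUSG00000030201.17, chr6:134423439-134544212) is the co-receptor needed in embryonic patterning, and Lrp5 is known for its control of bone mass. Fzd9 was the highest receptor in each pool, with pool differences of 1.36 at Fzd9 and 1.25 at Lrp6. In pool 2, Fzd9, Lrp6, Lrp5 and Fzd7 lay within 0.457 of one another. Lrp5 was below Lrp6 and Fzd7 in pool 1 and above both in pool 2. The order at the top of the class is thus not settled. Fzd7, a receptor of stem cells in the intestine, had 5.29 and 4.40.

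Fzd2, which can pass on both canonical and Wnt5a signals, had 4.06 and 4.43. Fzd5, needed in the yolk sac and eye, had 3.87 and 3.65. Fzd3, a receptor of axon guidance, had 3.87 and 3.19. These receptors were above the median of all genes. Fzd4, a receptor of retinal vessels that also binds the non-Wnt ligand norrin, had 3.50 and 3.18, at the 51.1st percentile. Its start lies 0.133 kb from that of Tmem135, in the same bin.

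The lower receptors were Fzd6, Fzd1, Fzd10 and Fzd8. Fzd6, which orients hair follicles, had 1.89 and 1.76. Fzd1, which can pass on canonical signals, had 1.87 and 0.863 in a stretch of A bins only 320 kb long. Fzd1 is the only coding gene that starts in its TAD, and no other starts within 500 kb. Fzd10 had 0.677 and 0.647, in the shortest stretch of A bins of any member, 100 kb, with the sign changing after 20 kb.

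Fzd8 (ENSMUSG00000036904.7, chr18:9212163-9218136), whose protein served for structures of a Wnt bound to its receptor, had 0.0543 in pool 1 and -0.696 in pool 2. It was the only member to change sign between the pools, and at the mean over 5 bins it was negative in both. Its bin was a small peak at the edge of a B domain. The TAD it starts in averaged -2.50 and had no bin above 0, and the start lay 27.8 kb from the edge of that TAD.

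Secreted inhibitors had a wide range. Dkk4 had 5.20 in pool 1 and 4.59 in pool 2. It is an inhibitor of the Dkk1 kind that β-catenin is known to induce. Dkk3 had 4.91 and 4.17. Dkk3 is the divergent member of its family and is not known as a ligand of Lrp6. These were the only inhibitors above the median of all genes.

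Sfrp2, which is made by fibroblasts, had 2.76 and 2.59, and Wif1, which binds Wnts through its own WIF domain, had 2.21 and 1.65. Sfrp1, which adipose tissue is known to express, had 0.964 and 1.12. Sfrp5 (ENSMUSG00000018822.8, chr19:42186410-42190691), an inhibitor secreted by fat cells that is known to bind Wnt5a, had 2.05 in pool 1 and 0.235 in pool 2. The pool difference of 1.82 at Sfrp5 was the largest of any member. With its sign, as pool 1 minus pool 2, it was above that of 98.9% of all genes. The median of the inhibitors is the mean of the 2 values of Sfrp5.

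In the B compartment in both pools were Sfrp4, Dkk2 and Dkk1. Sfrp4 (ENSMUSG00000021319.9), an inhibitor of bone and fat, had -0.192 and -0.863, with the nearest change of sign 40 kb away. Dkk2 (ENSMUSG00000028031.8, chr3:131790336-131886065), an inhibitor needed in the eye, had -1.85 and -2.42, and no other coding gene starts within 500 kb of it. Dkk1 (ENSMUSG00000024868.9, chr19:30523263-30527065), the inhibitor that binds Lrp6 and is required for head formation, had -3.44 and -3.00. Dkk1 was the lowest member, at the 10.4th percentile of all genes. Its 400-kb TAD averaged -3.66 with no bin above 0, and its nearest coding neighbour, Mbl2, had -2.44 at 317 kb.

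The Dkk family thus had 2 members in each compartment and held both the highest and the lowest inhibitor. Fzd genes were in the A compartment in both pools in 9 of 10 cases, with a median of 3.44. Genes with an Sfrp symbol were so in 3 of 4 cases, with a median of 1.09. Among all genes 75.6% were so, with a median of 3.26.

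**Figure D3:**
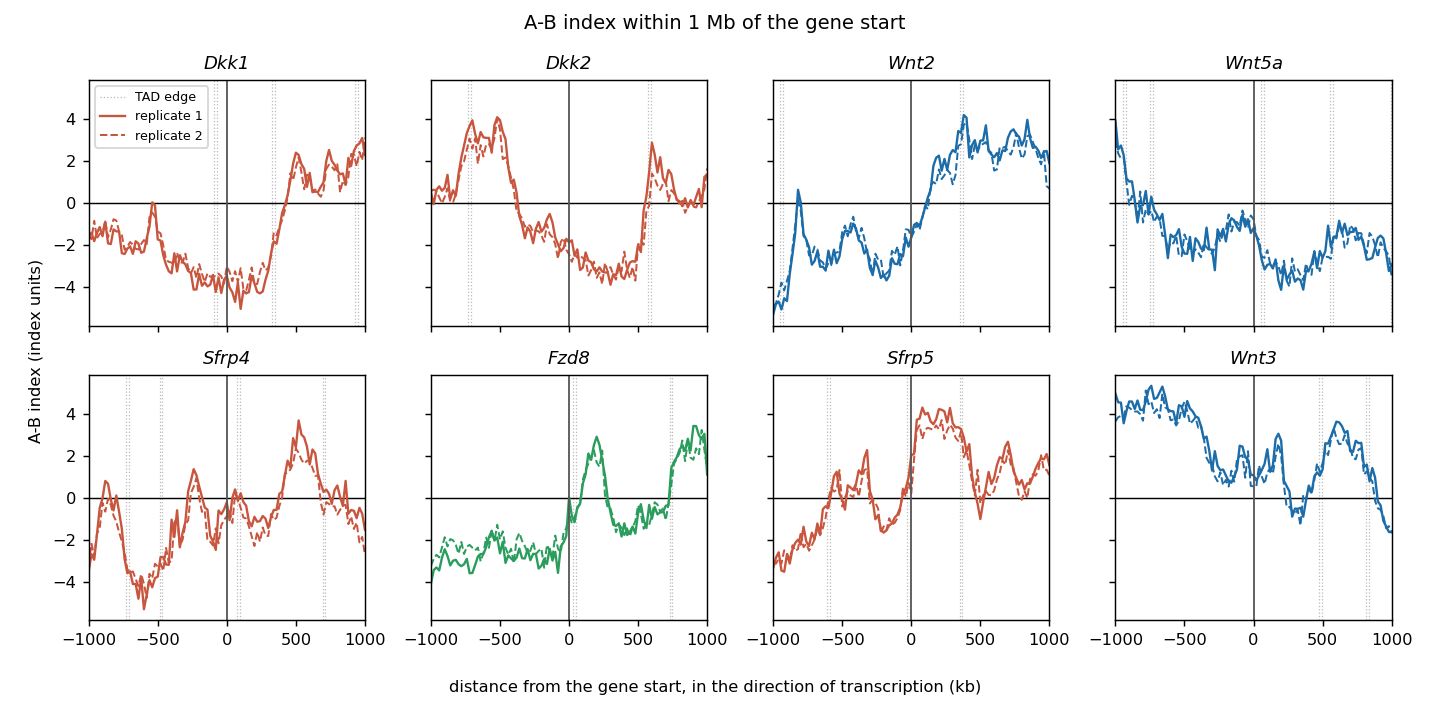
A-B index (index units) in 20-kb bins within 1 Mb of the starts of 8 members, along the direction of transcription, in pool 1 (solid) and pool 2 (dashed), with TAD edges dotted. Dkk1 sits in a low stretch and Wnt5a in a B domain with 9.90% of bins above 0, Fzd8 and Sfrp5 lie where the index climbs, and Wnt3 lies in a dip of an A domain.

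Over the members Pearson's r between the pools was 0.967 (n = 40 genes from 2 libraries, given as a description). Pool 1 was higher at 32 of 40 members, against 70.9% of all genes, with a mean difference of 0.462 (SD 0.60) over the members and 0.340 (SD 0.646) over all genes. The pools differed by more than 1 at 8 members, which were Wnt3a, Wnt9a, Wnt5b, Wnt16, Fzd9, Lrp6, Fzd1 and Sfrp5, against 16.9% of all genes. None of these 8 changed compartment between the pools.

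Of the 40 starts, 39 lay inside a TAD, against 93.9% of all genes. The exception was Lrp5 (ENSMUSG00000024913.18), which lies before the first TAD of chromosome 19. The nearest TAD edge was at a median distance of 171 kb for the members and 142 kb for all genes. Starts within 100 kb of an edge were 12 of 40 among the members, against 38.7% of all genes. By class the median distance was 242 kb for ligands, 194 kb for receptors and 110 kb for inhibitors. Sfrp5 lay nearest to an edge, at 9.31 kb, followed by Sfrp2 at 26.5 kb and Fzd8 at 27.8 kb. TADs were called on the merged map of both pools, so these distances have no replicate, and an edge is placed to the nearest 20-kb bin.

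The start exceeded the mean of its TAD at 25 of 39 members, against 63.8% of all genes. By class this was so for 10 of 19 ligands, 9 of 11 receptors and 6 of 9 inhibitors. Wnt3 and Wnt9b lay furthest below their TAD, with differences of -2.89 and -2.86, and 1.36% and 1.39% of all genes inside a TAD were as low or lower. Sfrp5 was -2.18 from its TAD mean of 3.32. Fzd8 and Sfrp2 lay above their TADs, with differences of 2.18 and 1.74. The inhibitor Dkk2 differed by -1.17, and the receptors Fzd6 and Fzd1 by 1.08 and 1.02.

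**Figure D4:**
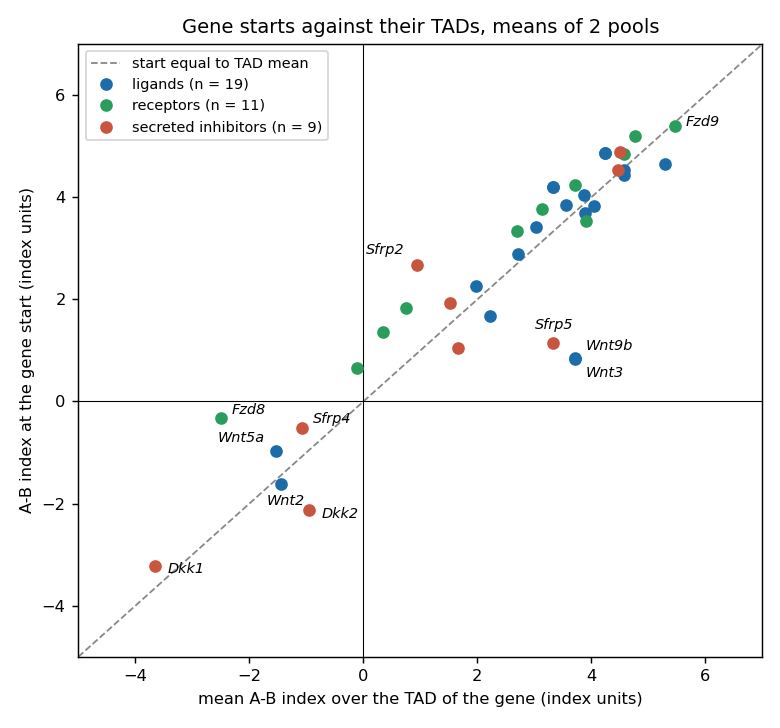
A-B index at the gene start against the mean over the TAD the gene starts in (both in index units, means of both pools), for the 39 members inside a TAD, with the line of equality dashed. Wnt3, Wnt9b and Sfrp5 lie far below the line and Fzd8 and Sfrp2 above it.

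In 4 TADs there was more than 1 member, which made 9 members in all. These were the pairs Wnt6 and Wnt10a, Wnt3a and Wnt9a, and Wnt1 and Wnt10b, and the trio Wnt3, Wnt9b and Fzd2. The trio lies in a TAD of chromosome 11 of 3920 kb with 125 coding genes and a mean index of 3.72. There Wnt3 and Fzd2, whose starts are 1170 kb apart, differed by -2.97 in pool 1 and -3.86 in pool 2. A shared TAD therefore did not go with a shared level in this case. Dkk4 and Sfrp1, both inhibitors, lie 787 kb apart on chromosome 8 in different TADs, and Dkk4 minus Sfrp1 was 4.23 in pool 1 and 3.47 in pool 2.

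The surroundings of the members held fewer coding genes than those of all genes. A median of 10.5 coding genes started within 500 kb of a member, against 16 for all genes, with 14 for ligands, 9.5 for receptors and 5 for inhibitors. The nearest coding start was at a median of 57.0 kb for the members and 21.1 kb for all genes. Stretches of bins with the same sign around the start had a median of 3820 kb for the members and 2340 kb for all genes. For ligands the median was 4380 kb, for receptors 1740 kb and for inhibitors 1560 kb. Over the members, the index had r = 0.592 with the number of coding starts within 500 kb and r = 0.465 with the GC content of the bin. Over all genes these were 0.159 and 0.679. These correlations are across genes that share libraries, bins and base composition, and are given as a description.

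GC content was highest at ligands and close between receptors and inhibitors, and its part in the index was not tested. The bins at the starts of members had a median GC of 48.5%, against 45.0% for all genes. Ligands had 50.7%, receptors 46.5% and inhibitors 46.2%. A CpG-rich start, with at least 50% GC and an observed over expected CpG of at least 0.6 in the 250 bases before and 50 bases after the start, was found in 23 members (11 ligands, 9 receptors and 3 inhibitors), against 33.2% of all genes. None of the 4 Dkk genes had one at the start used. Of the members in the B compartment in both pools, Wnt2 had one, while Wnt5a, Sfrp4, Dkk2 and Dkk1 did not. The other members with a CpG-rich start were in the A compartment in both pools, except Fzd8, which changed sign. Members in A without one included Wnt10b and Wnt10a. A link between such starts and the compartment was not tested. For Wnt10b, Dkk2 and Dkk3 the start used is not that of the canonical transcript, where CpG content was not read. The 150 bases before the start are shown for 4 members with high or low means, taken from those whose start is that of the canonical transcript and whose stretch overlaps no annotated exon, which leaves out Fzd9. They are Wnt1 and Wnt2 as ligands from opposite compartments, Lrp6 as a receptor with a high mean and Dkk1 as the inhibitor with the lowest. The stretch of Wnt1 lies inside the annotated body of Wnt10b, outside its exons. The sequences run 5′ to 3′ along the gene on GRCm39, with each CG in capitals.
Wnt1 (chr15:98687588-98687737, + strand): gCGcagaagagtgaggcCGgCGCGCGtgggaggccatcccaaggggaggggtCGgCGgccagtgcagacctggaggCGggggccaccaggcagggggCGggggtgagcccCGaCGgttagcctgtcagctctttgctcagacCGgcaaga
Wnt2 (chr6:18031893-18032042, - strand): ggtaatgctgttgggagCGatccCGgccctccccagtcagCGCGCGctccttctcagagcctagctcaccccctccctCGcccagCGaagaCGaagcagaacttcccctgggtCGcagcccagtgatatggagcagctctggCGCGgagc
Lrp6 (chr6:134544213-134544362, - strand): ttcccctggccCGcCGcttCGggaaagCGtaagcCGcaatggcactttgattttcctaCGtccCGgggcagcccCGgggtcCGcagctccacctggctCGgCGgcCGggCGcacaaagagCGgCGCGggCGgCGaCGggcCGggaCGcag
Dkk1 (chr19:30527066-30527215, - strand): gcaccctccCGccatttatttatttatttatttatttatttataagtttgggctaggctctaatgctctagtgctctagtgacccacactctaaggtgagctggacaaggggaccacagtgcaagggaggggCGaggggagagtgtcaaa
CG occurs 12 times in the sequence of Wnt1, 11 times in that of Wnt2, 21 times in that of Lrp6 and 2 times in that of Dkk1. In the same order, the means of their bins were 4.86, -1.61, 5.21 and -3.22. These 4 members were picked by their index, and a link between CG count and compartment was not tested.

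The pathway ends at TCF/LEF factors, so the letters they are known to read were looked for in the same 300 bases. ATCAAAG or its complement CTTTGAT occurred at 5 members, against 3.82% of all genes. They were the ligands Wnt11, Wnt5b and Wnt8a, the receptor Lrp6 and the inhibitor Dkk4, and Dkk4 held a pair of matches. All 5 were in the A compartment in both pools, as were 34 of the 40 members. For Wnt11 and Wnt5b the start used is not that of the canonical transcript, where the letters were not looked for. The matches are printed on the strand of the gene with 8 bases on each side and the letters in capitals, except for Wnt8a.
Wnt11: gtgggcggATCAAAGcgacggtc
Wnt5b: tacagtgtCTTTGATtattactg
Lrp6: caatggcaCTTTGATtttcctac
Dkk4 upstream match: tgaactgaCTTTGATatgcggta
Dkk4 downstream match: aactattgATCAAAGatttgaag
A match of these letters is a description and not a measured binding site.

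The rest of the pathway was read the same way, from lists of other Wnt genes. Together these held 61 genes, of which 57 (93.4%) were in the A compartment in both pools, against 75.6% of all genes. In B were 4 of them, against 21.7% of all genes, and their median was 3.30, against 3.26 for all genes. The relay between receptor and β-catenin had 16 of 16 genes in A with a median of 3.72, and the nuclear factors had 13 of 13 with a median of 3.58. In the relay Gsk3a, a kinase that marks β-catenin for destruction, was highest at 8.65 and Axin2, a scaffold that is itself a Wnt target, was lowest at 1.18. Among the nuclear factors Ctnnbip1, which blocks β-catenin from TCF, was highest at 6.05. The co-repressor Tle4 had the lowest mean, 0.754, within 0.457 of that of the next gene.

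For the lists that follow, the values of all genes are 75.6% in A in both pools and a median of 3.26. The lists are short, and their counts are given as a description. Of 8 other secreted or surface inhibitors, 7 were in A with a median of 1.62. Dkkl1, a relative of the Dkk genes, was highest at 8.05. Frzb, which belongs to the Sfrp family under another symbol, was lowest at -0.667. Of 9 genes for R-spondins, their receptors and the ligases they block, 6 were in A with a median of 1.37. Their highest was the ligase Znrf3, which removes Frizzleds from the surface, at 6.87, and the lowest were the ligands Rspo3 at -3.58 and Rspo2 at -3.55, which cannot be ordered. Rspo2 was named after its value was seen. Other receptors and co-receptors of the pathway, not all of them receptors of Wnts themselves, were in A in 7 of 7 cases with a median of 5.04. Their means ran between 7.21 for Lrp4 and 1.42 for Ror1, a receptor of Wnt5a, and the order at either end differed between the pools. Notum, which removes the lipid from Wnts, had 6.03, and Wls, which carries Wnts to the surface, had 2.09. Of 10 common target genes 9 were in A with a median of 2.28, between 5.11 for Ccnd1 and -0.475 for Lgr5. Some target genes stand in other lists too.

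**Figure D5:**
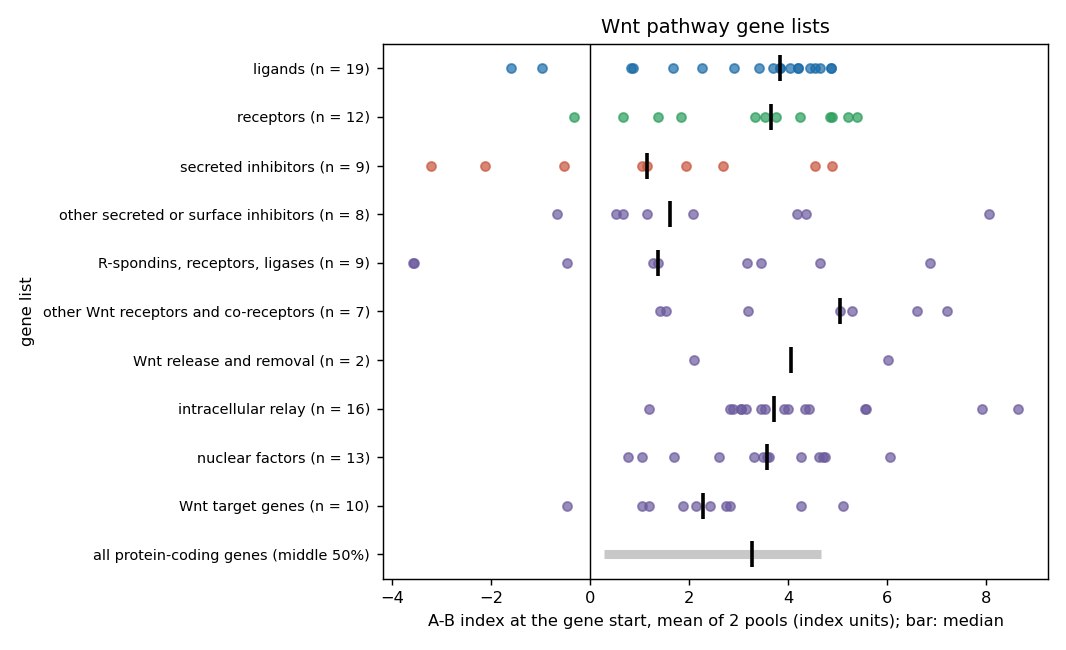
A-B index at the gene start (index units, mean of both pools) for ligands, receptors, secreted inhibitors and the lists of other Wnt genes, 1 point a gene, with list medians as bars and the middle 50% of all genes as a grey band. The relay, the nuclear factors, the other receptors and co-receptors and the list of Wnt release and removal have no gene below 0. The secreted inhibitors and the R-spondin list reach -3.22 and -3.58.

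The map covered 123133 bins on 19 autosomes, with 2979 TADs of a median length of 540 kb. Of the markers of cell types, 8 of 8 for adipocytes were in the A compartment in both pools, with a median of 4.16, against 75.6% of all genes. Endothelial markers were so in 5 of 5 cases, progenitor markers in 4 of 5, epithelial markers in 4 of 6, macrophage, lymphocyte and muscle markers in 3 of 5 each, and neuronal markers in 2 of 5. A compartment is not a level of expression, so these counts neither check the tissue nor give the share of any cell type in the pools.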

How the data were processed

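In situ Hi-C of 2 pools of mouse iWAT was analysed. The deposited index is a score that can be negative, with 1 value per library for every 20-kb bin, and TADs of the merged map are deposited as positions. Reads had been aligned and filtered in Juicer with BWA to GRCm39, the A-B index computed per chromosome, and TADs called from the insulation score of balanced maps. The index is relative to the A and B regions of its own chromosome, so levels on different chromosomes share no common reference. Sheep files were not used.

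Protein-coding genes and starts were taken from GENCODE M39, 20621 genes on the 19 autosomes, and sequence from GRCm39. Each gene took the index of the bin of its start and the TAD that holds it. Placement was tested on simulated data. Every member is named with both values, and of each other list the genes with the highest and the lowest mean, with Rspo2 named beyond that rule. Members and lists were chosen with earlier results of these data known. Alternatives changed the bins read, the scaling, the pools, the threshold and the start. Whether the pools came from separate litters or days is not given in the sources used here. Python 3.11.15, numpy 2.4.6, pandas 2.3.3 and matplotlib 3.10.9 were used.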

Additional observations from a re-analysis of the deposited data

How the results depend on the processing

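Reading 5 bins or the gene body, taking the start of the canonical transcript (chosen after seeing the data) or dividing by the chromosome's SD left 34 members, 17 ligands, 11 receptors and 6 inhibitors in A in both pools, and a threshold of 0.5 left 33 members (72.3% of all genes). Of all genes, 75.2% were in A with 5 bins, 75.1% with the gene body, and 75.6% with the canonical start or the SD. Subtracting the chromosome's gene median left 16 members, 9 ligands, 6 receptors and 1 inhibitor above 0, against 9628 of all genes. This is 40% of members against 46.7% of all genes, where the deposited index gave 85% against 75.6%. The order of the shares thus depends on the scaling, and neither is read as a trait of the members. By construction this scaling puts about as many genes below 0 as above. Medians were then 0.00988 for members, 0.198 for ligands, 0.365 for receptors, -1.38 for inhibitors and 0.0138 for all genes. Divided by the chromosome's SD they were 0.976, 0.993, 1.02 and 0.337, against 0.928 for all genes. Leaving out a pool gave medians of 3.17 to 3.76 for members, 3.58 to 4.08 for ligands, 3.42 to 3.87 for receptors and 1.12 to 2.05 for inhibitors, with 34 to 35 members in A. All genes moved too, with medians of 3.06 to 3.47 and 15720 to 16022 of 20621 in A. For Fzd8 the values were -0.696 without replicate 1 and 0.0543 without replicate 2. With the mean of 5 bins, 0 members changed sign between pools, against 1 at the start. That mean moved 10 members beyond their own SD between pools and the gene body moved 8. An SD of 2 values can be very small, so these counts include small moves. At Wnt2 the SD was 0.00887, and the mean of 5 bins was -1.37 against -1.61 at the start. Boundaries placed midway between TADs gave a median distance of 181 kb, and 9 members shared a TAD when the whole gene had to lie inside. Starts of RefSeq were not run, as no mouse RefSeq table was used here. No paired analysis was possible because the mouse samples form 1 group with no comparison between groups. With 2 pools and unknown depth per bin, differences under about the SD of 0.457 cannot be read as an order of genes.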
